A study of Rattus norvegicus with 12 samples.

Results

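The combined treatment with estradiol (E2) and growth hormone (GH) was followed in the liver of hypothyroid-orchidectomized (TXOX) rats through the 4 TXOXE2GH arrays, each of which compared RNA of a treated rat in Cy5 with RNA of a vehicle-treated TXOX rat in Cy3. These 4 arrays are part of a series of 12, with 4 arrays for E2 alone (TXOXE2) and 4 for GH alone (TXOXGH) against the same vehicle group. Chosen by their label, the 4 arrays were described over the probes with an unflagged value on at least 3 of them, 18935 of the 26962 probes on the slide, and the measure was the log2 ratio of treated to vehicle liver, tested against 0. All rats were male Sprague-Dawley, and an age of 3 months is given in the labels of the vehicle channel. Hypothyroidism was induced with the goitrogen methimazole and the testes were removed in every group compared here, the vehicle group included, so that no array compares with an intact animal. By the study's methods, the combined group was injected with E2 benzoate at 50 µg/kg on 5 days a week and received GH at 0.3 mg/kg per day, with E2, over the last 7 days. E2 alone was given over 27 days in all, and GH alone was given for the same 7 days after vehicle. With or without E2, GH was injected every 12 h, an interval the paper chose to imitate its secretion in males.

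GH acts on hepatocytes through its receptor, the kinase JAK2 and the transcription factor STAT5b, and it drives hepatic production of IGF-I. The temporal pattern of GH secretion differs between male and female rats, and the liver reads it as a sex-dependent program of cytochrome P450 enzymes, carriers and secreted proteins. Estrogens act on the liver through the estrogen receptor and also alter GH signalling there, in part through proteins of the SOCS family, which dampen cytokine receptors. Thyroid hormone and testicular androgens both shape these programs, and their removal in the TXOX rat leaves a liver in which E2 and GH can be given back one at a time or together.

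The files used here do not pair the 70-base probes of this array with genes, and no probe ID matched the gene table at hand. Probes are therefore named by their IDs, with their place on the slide where it bears on the value, and gene groups and the markers of hepatocytes or other liver cells were not analysed here. Fewer cells of a type and less RNA per cell cannot be told apart in RNA of whole liver. The treated sample was in Cy5 on every array, so that dye and treatment cannot be told apart in a ratio to TXOX. The dye cancels between treatments. On the 4 TXOXE2GH arrays 19130 to 20930 of 27094 spots with a probe were unflagged, and the median spot was 1.54 to 1.81 times its local background in Cy5 and 1.7 to 2.04 times in Cy3, so that much of the array was dim. The log2 ratios of any 2 of these arrays correlated by 0.288 to 0.462 across probes.

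Relative to vehicle, 716 probes, or 3.78% of those tested, were changed by E2 plus GH by at least 0.58 on the log2 scale (1.5-fold) with a limma-adjusted p under 0.05. Of these, 297 were higher (1.57%) and 419 were lower (2.21%). The typical change was modest in both directions. Higher probes had a median log2 ratio of 0.755 (interquartile range 0.65 to 0.932) and lower ones of −0.73 (−0.877 to −0.637), with median standard errors of 0.153 and 0.158. The far ends were not alike, since a change of 4-fold or more was reached by 24 higher and only 4 lower probes, while a change of 2-fold or more was reached by 66 and 65. The highest ratio of all was that of Rn30009637, 4.99 ± 0.431 (SE), and the lowest that of R000191_01, −3.29 ± 0.359. Both spots had few pixels above background in at least 1 channel on an array.

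The called changes were present on each array and not of the same size on all. The sign of the mean was seen on all measured arrays in 282 of 297 higher and 395 of 419 lower probes. The mean log2 ratio of the higher probes was 1.03, 1.1, 1.01 and 0.868 on arrays 1 to 4, and that of the lower probes was −0.911, −0.947, −0.676 and −0.739. Array 3 thus had the smallest falls, and 16 of the 24 single values that went against the fall of a lower probe were found on it. It also had the smallest share of higher probes with a ratio of at least 0.58 in size, 60.6%. That share was 79.7%, 84% and 67.8% on arrays 1, 2 and 4. These probes were chosen on the arrays described, so that the means show how the arrays compare and not how large the response is. Without TXOXE2GH replicate 3 the count of changed probes was 1021, against 716 with it.

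Lower probes were concentrated among the bright ones. When the probes tested were split by brightness into 4 bins of equal size, 95 of the brightest bin were higher and 241 lower, and 7.1% were called. In the other bins, from the dimmest up, 48, 69 and 85 probes were higher and 37, 64 and 77 lower, with 1.8%, 2.81% and 3.42% called. The median standard error was 0.174 in the dimmest bin and 0.122 in the brightest, so that the same fold change passes less easily when the probe is dim. Since brightness differs between probes for reasons of sequence as well as abundance, the bins rank spots and not transcripts.

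**Figure D1:**
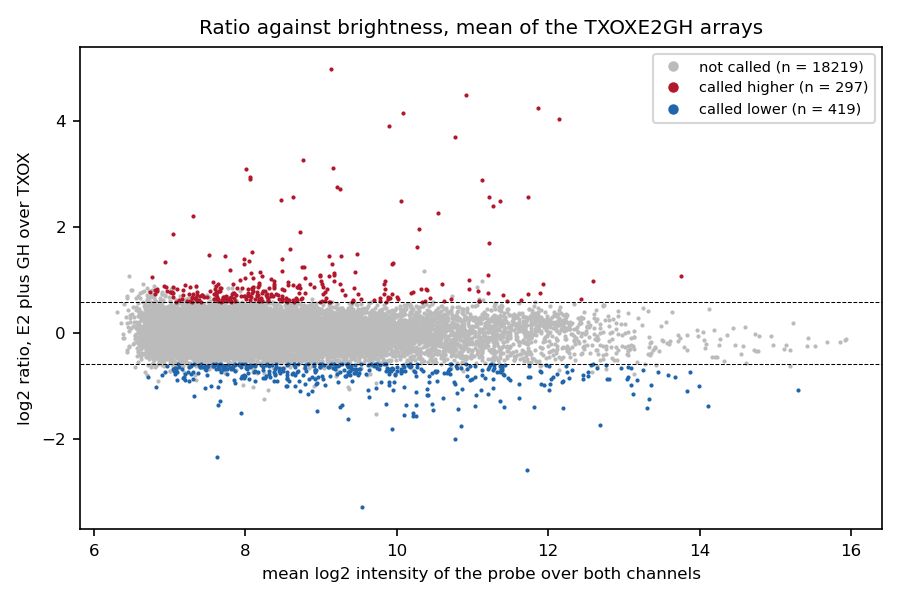
Log2 ratio of E2 plus GH to TXOX (mean of the 4 arrays, vertical axis) against the mean log2 intensity of the probe over both channels of the 12 arrays (horizontal axis), 1 point for each of 18935 probes. Red points are the 297 called higher and blue points the 419 called lower, dashed lines mark 0.58 and −0.58; ratios of 4-fold or more lie mostly above 0 and the bright called probes mostly below.

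Among called probes that were above background in both channels on all 4 arrays and not saturated, 108 higher and 211 lower probes had the same sign throughout. The 10 highest of them had log2 ratios of 1.96 to 4.50 and the 10 lowest of −2.60 to −1.40, that is 3.9- to 22.6-fold higher and 2.65- to 6.06-fold lower than in vehicle liver. All 20 were also called when the loess was fitted within printed blocks and in the table of ratios deposited by the authors. Their levels after E2 alone and after GH alone, on arrays against the same vehicle group, are given beside them as values and not as separate evidence. Loess within printed blocks left a correlation of 0.335 between neighbours along a row. Rn30023084, Rn30019716, Rn30023386, Rn30016077, Rn30019674 and Rn30018070 lay beside another probe called higher in their row, and Rn30026942 beside an empty spot at 2.52. Rn30001789, Rn30026821, Rn30001645 and Rn30011475 lay beside another probe called lower.

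Rn30009561 led the higher probes. Its log2 ratio was 4.09, 4.25, 5.32 and 4.31 on the 4 arrays of E2 plus GH, a mean of 4.50 ± 0.316 (SE, limma-adjusted p = 4.72e-07). It was high with each hormone alone as well, at 3.15, 2.70, 3.03 and 4.78 after E2 and at 3.69, 5.11, 5.87 and 5.39 after GH, and the arrays of the combined treatment lay within the range of those of GH and E2 together. Its neighbours in the printed row read −0.35 and 0.25.

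Rn30023084 followed GH and not E2. It read 3.18, 3.75, 4.82 and 3.04 after E2 plus GH (mean 3.70 ± 0.39, limma-adjusted p = 3.34e-05) and 3.35, 4.61, 6.25 and 3.50 after GH alone. After E2 alone it read −1.38, 0.35, −1.50 and −0.38, below every value of the other treatments, and the difference between E2 plus GH and E2 was 4.43 ± 0.554 (limma-adjusted p = 0.00211). The spot printed before it, Rn30023060, which was saturated on array 1, had a ratio of 4.04 and the one after it 2.76. These neighbours read −1.07 and −0.04 after E2 alone and 4.65 and 3.52 after GH alone. The pattern is thus not particular to Rn30023084 in its row. Rn30008458 had the same order of ratios, 4.24 ± 0.571 after E2 plus GH, 4.83 after GH and −1.55 after E2. Its Cy5 spot, however, had 73%, 8%, 20% and 1% of its pixels saturated on the 4 arrays of the combined treatment. Its ratios there were 2.03, 4.77, 6.96 and 3.22, lowest at 73% saturation and highest at 20%. The part of saturation in these ratios was not tested.

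Of the lower probes, Rn30012333 had the lowest ratio, −1.81, −3.02, −3.24 and −2.32 on the 4 arrays (mean −2.60 ± 0.272, limma-adjusted p = 3.16e-05). It fell after E2 alone (−2.43) and after GH alone (−1.65) too. Rn30001789 was different. Its ratios of −1.11, −1.67, −2.74 and −1.50 after E2 plus GH (mean −1.75 ± 0.253, limma-adjusted p = 0.000566) stood between −4.74, −3.26, −4.75 and −5.06 after E2 alone and 0.29, −0.42, −0.32 and 0.17 after GH alone, with no overlap between the 3 treatments. The difference from E2 alone was 2.70 ± 0.359 (limma-adjusted p = 0.00269). The spots on either side of it in the printed row read −0.82 and −0.89. Over the other lower probes shown in the plot, ratios after E2 alone reached up to 0.12 and those after GH alone up to 0.01.

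**Figure D2:**
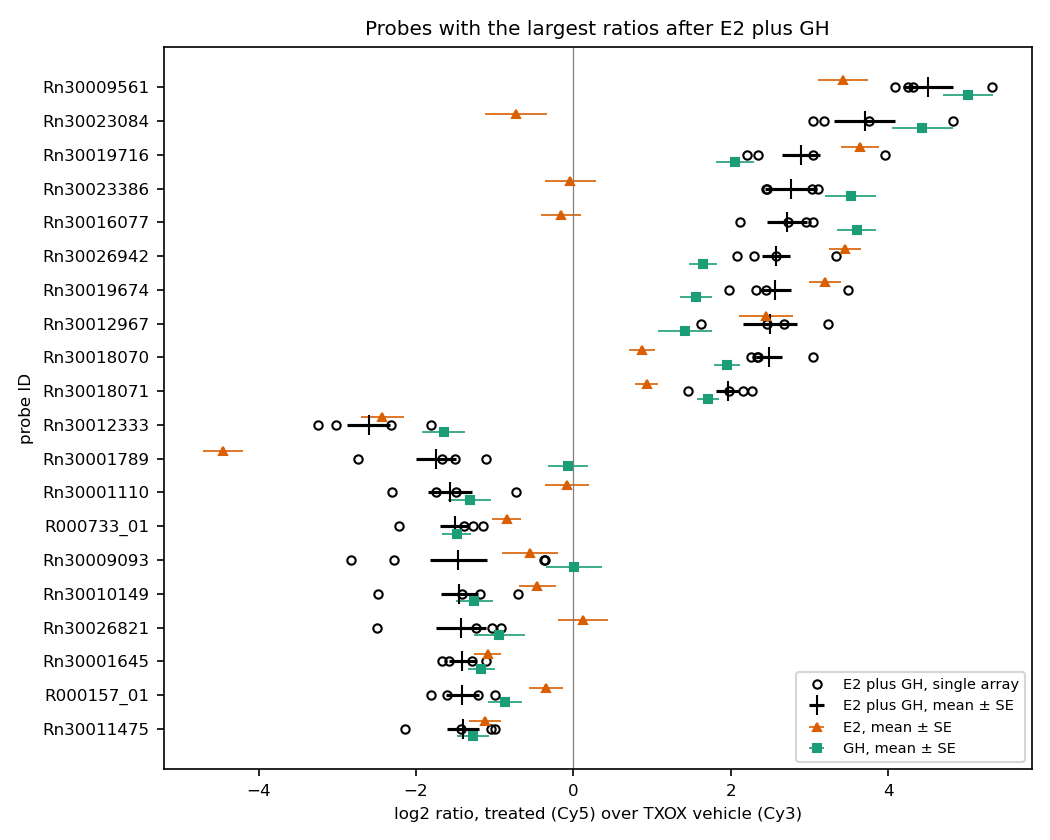
Log2 ratio to TXOX (horizontal axis) of the 10 highest and 10 lowest called probes that were above background on all 4 arrays. Open circles are the 4 TXOXE2GH arrays, the black bar is their mean ± SE, triangles and squares are the means ± SE after E2 and after GH (4 arrays each, 3 for 1 probe after E2); E2 plus GH lies near GH for Rn30023084, at −1.75 between E2 (−4.45) and GH (−0.07) for Rn30001789, and near E2 (−2.43) for Rn30012333.

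Many of the largest rises came in runs of spots printed side by side in one row of a block. In block 37, row 21, the spots of columns 7 to 15 had mean log2 ratios of 4.04, 3.70, 2.76, 1.46, 1.91, 1.07, 0.92, 0.87 and 0.70 after E2 plus GH, following a spot in column 6 at −0.30. The first of them, Rn30023060, had 80% of its Cy5 pixels saturated on array 1, where it read 2.32 against 4.45, 6.19 and 3.20 on the others. How far saturation bears on its mean was not tested. In block 27, row 18, a spot at 0.18 was followed by 2.89, 2.27, 2.56, 2.39 and 0.82, the third of which is Rn30019674. Array 3 was the highest at each spot of this run, with 3.96, 3.17, 3.49, 3.18 and 1.28. These are different probes, whose IDs are not consecutive.

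The row in which Rn30026942 was printed bears on this directly, because the spot after it is listed as empty. Rn30026942 itself (block 27, row 24, column 15) read 2.08, 2.29, 3.34 and 2.57, after a spot at 0.08. The empty spot read 2.31, 2.59, 3.33 and 1.83, with a Cy5 signal of 11410, 10504, 8729 and 3184 above background where Rn30026942 had 6998, 7154, 10240 and 8341. Then came a control spot of the kind named Alien (2.30 on average), a control of the kind Rn_Control (2.11), a spot of Rn30000745 (1.94), a pair of Alien spots (1.82 and 1.09) and another Rn_Control (0.85). After E2 alone, with 3 arrays measured, the empty spot read 3.47 beside 3.45 for Rn30026942, and after GH alone 1.72 beside 1.65. An empty spot thus gave a ratio close to that of its neighbour under each of the treatments.

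Rn30000745 was printed 12 times across the slide and shows what 1 such spot can do to a mean. The spot in that row had a mean ratio of 1.94, while the other 11 ranged from −0.32 to 0.75. Its Cy5 signal above background was 1319 to 4005. In the others it was at most 181, except for 525 to 710 in block 39, so that most of the 11 ratios come from dim spots. With all 12 spots the ratio was 0.52 ± 0.129 (limma-adjusted p = 0.0204), and without that spot it was 0.36 ± 0.128 (limma-adjusted p = 0.0916). Leaving it out was chosen after its values were seen.

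**Figure D3:**
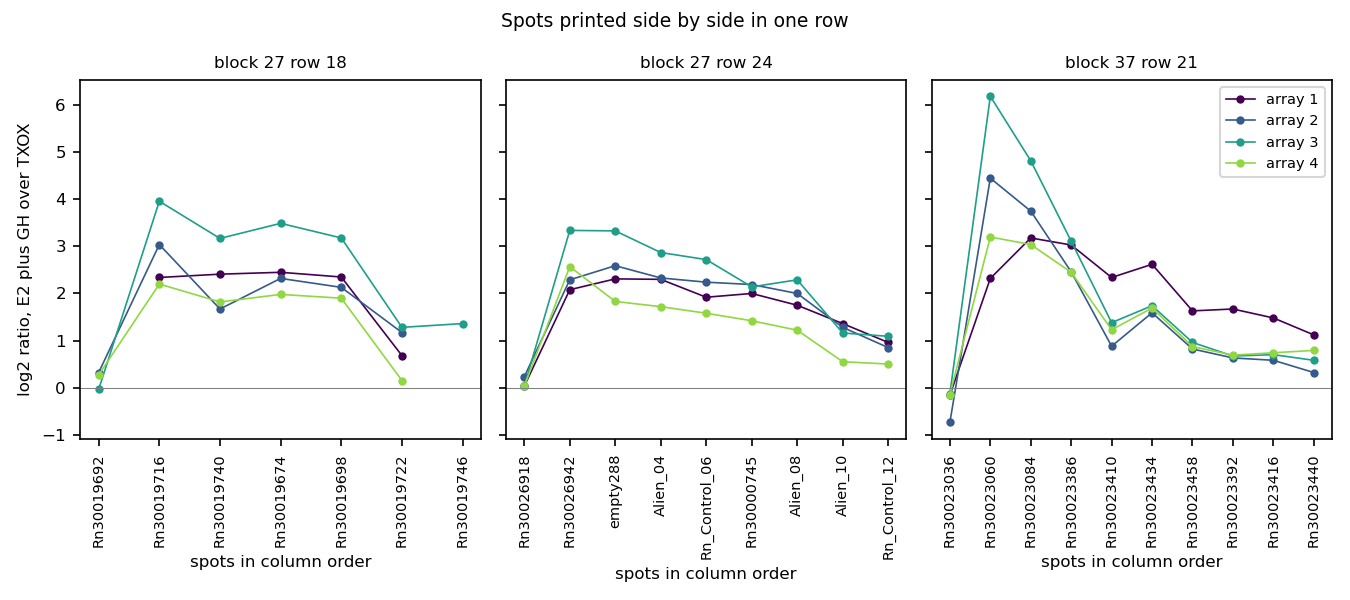
Log2 ratio of E2 plus GH to TXOX (vertical axis) of spots in consecutive columns of 3 printed rows (horizontal axis, spot names), 1 line per TXOXE2GH array. In each row the ratio jumps at 1 spot and is lower again by the last spot measured on all 4 arrays, though on array 1 it stays level or rises over the first spots after the jump, and in block 27, row 24 the spot listed as empty (2.52 on average) reads as high as the probe before it (2.57).

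Across the slide the ratio of a probe went with that of the spot in the previous column more than with that in the previous row. The correlation was 0.401 over 13694 pairs of neighbours along a row and 0.183 over 13265 pairs across rows, as a description of spots that share slides and local background. It was 0.335 and 0.0886 after loess within printed blocks. Of 206 higher probes with a tested spot in the previous column, 42 (20.4%) had one that was itself called higher, against 6 of 203 (2.96%) for the previous row. For lower probes these were 67 of 275 (24.4%) and 6 of 240 (2.5%). Both shares along the row stood above the 1.57% and 2.21% of all tested probes that were called in these directions. Among probes changed at least 2-fold, the spot in the next column had more of the ratio than the spot in the previous one. The 42 higher ones measured on both sides had a median of 0.0458 in the spot before them and 0.477 in the spot after, and the 32 lower ones had −0.179 before and −0.677 after. Of the 716 called probes, 535 (227 higher, 308 lower) did not lie beside another probe called in the same direction in their row. These include probes whose neighbouring spots were not tested, such as Rn30026942 beside the empty spot, so that not all of the 535 are free of high or low neighbours. Of the 24 probes with a rise of 4-fold or more, 6 came directly after a probe called higher. The part of the neighbouring spots in any single ratio was not tested.

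Position by printed block moved with the ratio as well. Differences between the 48 blocks made up 8.55% of the variance in mean ratio, and 0.221% after the loess was fitted within blocks. Block medians ran from −0.222 in block 1 to 0.23 in block 48, and the share of probes called from 0.416% in block 39 to 11.4% in block 1. In block 1, 42 of 50 called probes were lower, whereas in block 48 all 22 were higher. With loess within blocks E2 plus GH changed 563 probes (2.97%), 236 higher and 327 lower, of which 483 were shared with the 716, or 67.5% of those and 85.8% of the 563. All 716 kept the sign of their ratio.

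**Figure D4:**
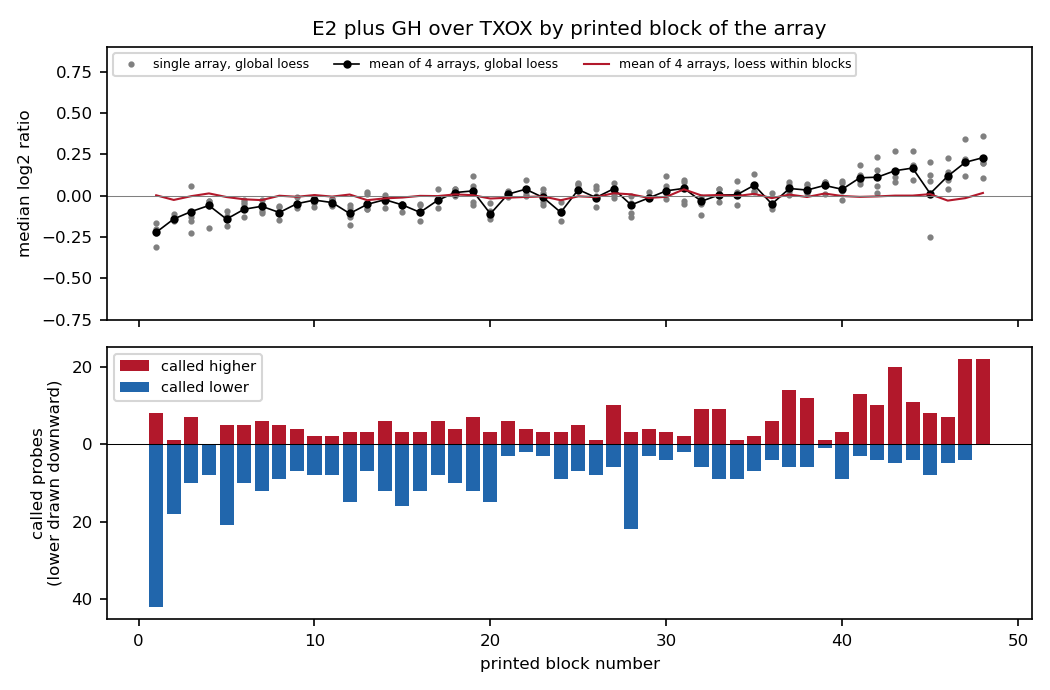
Upper panel, median log2 ratio of E2 plus GH to TXOX in each of the 48 printed blocks (black, mean of 4 arrays after global loess, grey points single arrays, red, after loess within blocks). Lower panel, the number of called probes per block, higher upward and lower downward; medians rise from −0.222 to 0.23 between the first and the last block, and called probes turn from mostly lower (42 of 50) to all higher (22).

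The table of normalized ratios deposited by the authors held a value on at least 3 arrays for 13013 probes, of which 450 (3.46%) were changed by the same rule, 188 higher and 262 lower. It tested 619 of the 716 probes and called 426 of them, and all 619 kept their sign. Together, 144 higher and 201 lower probes were called from the scanner values with either loess and from this table.

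What GH adds to E2 was addressed by comparing the arrays of E2 plus GH with those of E2, where vehicle and dye cancel. At an adjusted p under 0.05 from limma, 144 of 17937 probes differed (0.803%), 83 higher and 61 lower with GH, and 2746 had an unadjusted p under 0.05. The differences had medians of 1.02 and −0.93 and all were at least 0.58 in size. The 83 higher probes had a median ratio to vehicle of −0.40 after E2, 0.67 after E2 plus GH and 0.59 after GH, and for 62 of them the sign after E2 plus GH was opposite to that after E2. The 61 lower probes had medians of 0.66 after E2, −0.22 after E2 plus GH and −0.13 after GH, with the opposite sign for 42. These probes were chosen on the E2 and the E2 plus GH arrays, and the medians describe them.

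Some responses to E2 were smaller when GH was given with it. R002461_01 read 3.01, 1.44, 3.42 and 3.00 after E2 and 0.05, 0.72, 0.76 and 0.53 after E2 plus GH, with a difference of −2.20 ± 0.309 (limma-adjusted p = 0.00269). Rn30016298 read 2.50, 1.5, 2.48 and 2.51 after E2 and 0.11, 0.28, 0.76 and 0.72 with GH added, a difference of −1.78 ± 0.226 (limma-adjusted p = 0.00211). Rn30022290 went the other way, from −1.45, −0.86, −1.54 and −2.41 to 0.34, 0.20, 0.11 and 0.23, a difference of 1.79 ± 0.25 (limma-adjusted p = 0.00269). In these 3 probes the groups did not overlap, and GH alone read −0.19, −0.14 and 0.25. Rn30005418 rose with GH in either setting, from −0.89 after E2 to 1.71 after E2 plus GH (difference 2.59 ± 0.385, limma-adjusted p = 0.00472), with 2.09 after GH alone. These 4 probes kept their call in every alternative tried for this comparison in which single probes were tested. The count did not. It was 70, 67, 51 and 95 without TXOXE2 replicates 1 to 4 and 43, 62 and 231 without TXOXE2GH replicates 1, 2 and 3. With loess within printed blocks 87 probes differed, 72 of them among the 144.

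What E2 adds to GH was addressed by the same comparison with the GH arrays. No probe of 18695 passed (0%) when the arrays were taken as separate samples in limma, where 1115 probes, or 5.96%, had an unadjusted p under 0.05, and SAM called none. The arrays of these groups deviated from their group means together by replicate number, however, and when these 8 arrays were fitted with a replicate block, 79 probes (0.423%) passed in limma, of which 22 were higher and 57 lower under E2. With loess within printed blocks, the blocked fit called 77, of which 64 were shared. The data had been seen when the blocked fit on 8 arrays was chosen. In the fit of all 12 arrays 0 probes passed with the block as fixed and 2 with it as random. All 79 had the same sign in every measured pair. The medians of the differences were 0.961 and −0.893. These probes were chosen on the same pairs, a choice that favours equal signs, so that signs and medians only describe them.

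Rn30018905 read 1.18, 1.99, 2.30 and 2.08 with GH alone and −1.61, −2.22, 0.56 and 0.57 after E2 plus GH, so that each pair was lower with E2, with differences of −2.79, −4.20, −1.74 and −1.51 (mean −2.56 ± 0.319, adjusted p = 0.00526 in the blocked fit of limma, 0.261 without the block). Its ratio was raised by GH alone (1.89) and was −0.67 ± 0.391 with E2 (limma-adjusted p = 0.302). R000191_01, the lowest ratio of the combined treatment, read 0.49, −0.92, −1.94 and −0.04 after GH and −1.93, −3.88, −3.87 and −3.50 with E2 (mean difference −2.69 ± 0.197, blocked adjusted p = 0.000102, 0.2 without the block), and −3.88 on average after E2 alone. Rn30024965 read −0.93, −1.19, −2.12 and −0.86 after GH and −0.02, 0.83, −0.63 and 1.08 with E2 (difference 1.59 ± 0.17, blocked adjusted p = 0.00141). Rn30012044 was high after both and higher with E2, with 3.76, 3.54, 4.75 and 3.58 against 2.06, 2.34, 3.79 and 1.99 (difference 1.36 ± 0.139, blocked adjusted p = 0.00104). These 4 probes were chosen after their values were seen. Of them Rn30012044 and R000191_01 had spots with few pixels above background on 1 array or more.

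**Figure D5:**
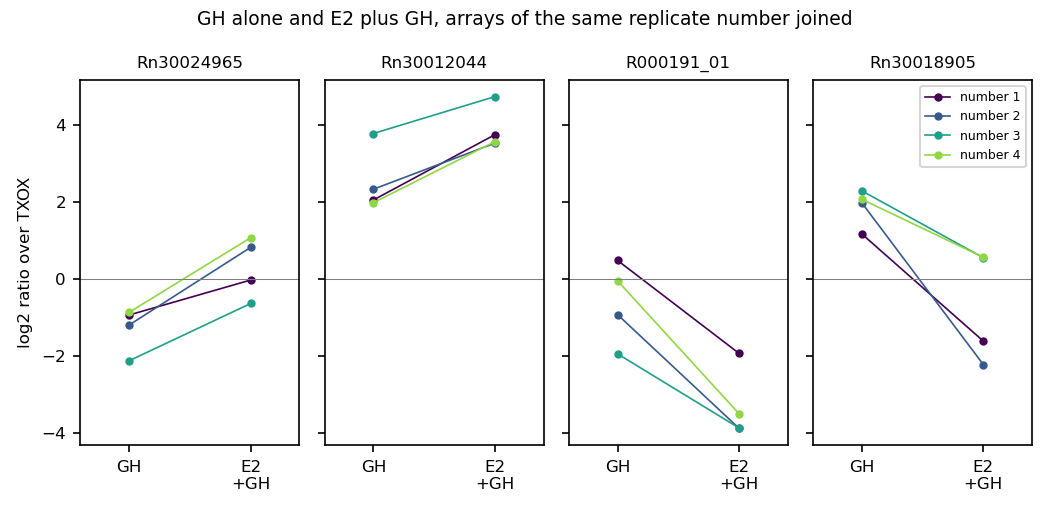
Log2 ratio to TXOX (vertical axis) on the GH and the E2 plus GH arrays for 4 probes called in the blocked fit, with the arrays of the same replicate number joined by a line. The lines of a probe run in 1 direction while their levels differ, as for Rn30018905, with differences of −4.20 to −1.51 in the 4 pairs.

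The combined ratio was also set against the sum of the ratios of E2 and GH alone. With a limma-adjusted p under 0.05, 157 of 17858 probes departed from that sum (0.879%), 52 above it and 105 below it. An effect of the dye stays in this comparison with a negative sign. For the 105, the median ratio was 0.74 after E2, 0.52 after GH and 0.16 after both, and for the 52 it was −0.65, −0.41 and −0.08. In 51 of the 52 and 103 of the 105 the combined ratio was no larger in size than the larger of the single ones, as in 70.4% of all probes tested. These probes were chosen on the same ratios, and the medians and counts only describe them. Rn30009561, the leading higher probe, was at 3.42 after E2, 5.01 after GH and 4.50 after both, a departure of −3.93 ± 0.549 (limma-adjusted p = 0.0118). That sum was out of reach on TXOXE2GH arrays 1 and 2, where its Cy3 signal above background was 1059 and 492. A matching Cy5 signal would exceed the scanner's range, in which the saturated spot of Rn30023060 read 65404 on array 1. The part of this limit in the departure was not tested. Rn30001789 departed upward by 2.77 ± 0.44 (limma-adjusted p = 0.0163, 0.0658 with loess within printed blocks). Rn30019674 was at 3.20 after E2, 1.56 after GH and 2.56 after both, a departure of −2.20 ± 0.354 (limma-adjusted p = 0.0163). It lies in one of the runs of spots described above. For Rn30022290 and R002461_01, described above, the departure was 1.54 ± 0.306 (limma-adjusted p = 0.0316) and −2.01 ± 0.379 (limma-adjusted p = 0.0287). With a replicate block 324 (random) and 401 (fixed) probes departed, the GH and E2 plus GH arrays being paired by number and the E2 arrays not. With loess within printed blocks only 8 probes departed from the sum, all below it and all among the 157. Rn30019674 was called there as well (limma-adjusted p = 0.0224), and so were Rn30019716 and Rn30026942 (both 0.0173). Each of these lies in the runs of spots in block 27 described above. Rn30009561 was also called there (limma-adjusted p = 0.0173), and Rn30022290 and R002461_01 were not (0.162 and 0.0982). Without 1 array the count fell to 46, 76, 26 and 66 for TXOXE2 replicates 1 to 4, to 83, 53, 34 and 22 for TXOXGH replicates 1 to 4, and to 35 and 52 for TXOXE2GH replicates 1 and 2.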

How the data were processed

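Liver RNA of individual treated rats (Cy5) was hybridized with RNA of TXOX rats (Cy3) on 12 rat oligonucleotide arrays of 27648 spots, 4 per treatment. The channel of each group was taken from the sample characteristics. The TXOX animal on each array is not given, and the dose of the combined group was read from the study's methods. The authors scanned the arrays with GenePix, and the deposited scanner files hold median foreground and local background intensities of both channels, the percent of pixels above background or saturated, and a flag score per spot. A deposited table holds log2 ratios that the authors normalized by loess within arrays; its columns followed the ratios computed here on the 4 TXOXE2GH arrays with correlations of 0.939 to 0.976 and medians of −0.006 to 0.014.

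Flagged spots were left out, background was corrected by normexp (offset 50), ratios were normalized by global loess within each array, 554 control and empty spots were left out, and the spots of the 12 probes printed 12 times were averaged. All 12 arrays entered 1 limma fit (limma 3.58.1, R 4.3.3, eBayes with an intensity trend, 9 residual degrees of freedom), and p-values were adjusted over all probes tested by Benjamini-Hochberg. Ratios to TXOX were called where they reached 0.58 in size on the log2 scale and the adjusted p was under 0.05, other comparisons at the adjusted p alone. The depth of an array is not a count, and the number of arrays limits the precision. The p-values measure the spread between these arrays.

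Against TXOX, the 10 highest and 10 lowest called probes were named among those of the same sign on all 4 TXOXE2GH arrays, with at least 50% of pixels above background in both channels and at most 10% saturated. In the other comparisons the 3 highest and 3 lowest called probes were named that met these spot limits on all arrays of every group compared, whatever their sign against TXOX, which leaves out probes with larger differences but dim spots in 1 group. The leading ones are given in detail. Rn30019674, Rn30012333 and Rn30008458 were named in an earlier account of these data. The probes and lists were chosen with earlier results of these data known. Replicate numbers were taken as pairs for GH and E2 plus GH from the data and not from the labels. Arrays of the same number deviated together from their groups (correlations of 0.288 to 0.427), and those of other numbers did not (−0.28 to 0.00331). With the E2 arrays the same numbers gave −0.146 to 0.108 and other numbers −0.259 to 0.296. The highest of these exceeded the lowest value of the pairs taken for GH. Deviations within a group sum to about 0, which pushes the values of other numbers down where that of the same number is high. Alternatives varied the background correction, normalization, filters, fit, test and arrays. The lists of liver genes and cell markers were not analysed here, since none of the tables used here pairs probes with genes. No column of per-sample values was without a sample. The scripts were tested on simulated data.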

Additional observations from a re-analysis of the deposited data

Results flagged for a closer look

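On a single array of the 4, a value stood apart from the others for 3 of 33 sets examined, and chance gives about 1 in 20. For Rn30018070 the gap took up 0.897 of the range (3.04 on array 1 against 2.26 to 2.34 on the others), and for Rn30008290 0.849 of it (−0.79 on array 3 against −0.34 to −0.26). The ratio of Cy5 signal to background of the median spot was lowest on array 4, at 1.54 against 1.77 to 1.81, a gap of 0.852 of the range.

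The effect of GH with E2 present differed from E2 alone by limma for Rn30005418 (2.59), Rn30022290 (1.79), R002461_01 (−2.20) and Rn30016298 (−1.78). The effect of E2 with GH present differed from GH alone in the fit with a replicate block for Rn30024965 (1.59), Rn30012044 (1.36), R000191_01 (−2.69) and Rn30018905 (−2.56), and for none of these 4 without the block.

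Spots listed as empty are outside the measurement. Of 306 such spots, 78 had a value on all 4 TXOXE2GH arrays, with a median log2 ratio of 0.00243. The highest was the spot after Rn30026942, at 2.52, and the next was 0.662. Between 16% and 30.4% of the empty spots were above background in a channel on an array. Their ratios followed those of the spot in the previous column (r = 0.936 over 49 spots, 0.831 over 48 without the highest) more closely than those of the spot in the next column (0.508 over 61), as a description of spots that share slides.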

How the results depend on the processing

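Against TXOX the 716 probes were 468 without background correction, 1074 (425 higher, 649 lower) with local background subtracted, 450 in the deposited table, 474 with SAM and 354 (118 higher, 236 lower) among probes above background in both channels, a restriction chosen after seeing the data. Leaving out 1 array gave 485 to 1021. Of 21 called probes named for this comparison, 19 kept their call in every alternative run for them, and Rn30009093 and Rn30026821 lost it in 5 values between them. Rn30008458 is among the 19, but it had too few values to be tested with saturated spots left out or in the deposited table.

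Against GH, 3 probes passed with loess within blocks, 3 with scaling between arrays and 2 with a random replicate block, and 79 and 77 in the fits of 8 arrays with a replicate block added after seeing the data; leaving out 1 array gave 0 to 2. Against E2 the 144 probes were 87 with loess within blocks, 67 with scaling, 70 with only the arrays compared, 82 without an intensity trend, 77 with SAM (85.7% higher, against 57.6%), 231 with a random and 239 with a fixed replicate block, though the numbers do not pair these groups. Leaving out 1 array gave 43 to 231. The departure from the sum counted 157 probes, and 65 after local background subtraction, 8 with loess within blocks (0% above the sum, against 33.1%), 97 with median centring, 36 with scaling (22.2% above), 83 without a trend, 324 with a random and 401 with a fixed replicate block. Leaving out 1 array gave 22 to 207. None of the 6 probes named for the departure kept its call throughout. No direction reversed. The cause of these changes was not tested. The gene lists were not run, and the dim spots limit what small changes can be seen.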
